A study of Mus musculus with 12 samples.

Results

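The Wnt genes of the perinatal mouse lung were followed across birth in 12 bulk RNA-seq libraries. Members were all genes of the deposited counts table with the symbol of a Wnt ligand (*Wnt*), a Frizzled receptor (*Fzd*), a secreted Frizzled-related protein (*Sfrp*), a Dickkopf (*Dkk*) or an R-spondin (*Rspo*), together with *Lrp5*, *Lrp6*, *Axin2*, *Lef1*, *Tcf7*, *Wif1*, *Ror1*, *Ror2*, *Notum* and *Nkd1*. This rule used symbols alone and gave 40 of the 16152 genes of the table: 12 ligands, 10 Frizzled receptors, 4 co-receptors, 4 R-spondins, 6 secreted inhibitors and 4 nuclear or feedback genes. A further 11 genes with such symbols were below the authors' expression minimum and are absent from the counts table.

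The lungs came from wild-type C57BL/6 mice of both sexes, with no transgene and no treatment, at 2 stages before birth, E15.5 and E18.5 (days of embryonic age), and at 2 stages after it, P5 and P8 (days of postnatal age). Each time-point had 3 libraries, and the 3 animals of a time-point were littermates. Age and litter therefore cannot be told apart, and the p-values measure the spread between littermates. The libraries held between 41337443 and 53901957 counted reads. The tissue label was checked on 5 alveolar type 2 cell (AT2) genes, whose summed expression was 597–2147 reads per 1000000 mapped reads (CPM) in the 6 embryonic libraries and 13459–18039 CPM in the 6 postnatal libraries. Of 12 genes of T cells and the thymus, the organ next to the lung in which T cells mature, the summed CPM was 5.02, 45.3 and 5.86 at E15.5 and 4.50–4.84 in the E18.5 libraries. It was 19.7–29.3 in the P5 libraries, and 253, 474 and 29.7 at P8. P8 replicates 1 and 2 and E15.5 replicate 2 thus stood apart from their littermates, and results that rest on them are given with and without them. Without these 3 libraries P8 is the single library replicate 3, so that any SE or p-value of P8 then assumes that it varies like the libraries of the other time-points. Heart and skeletal muscle genes also differed between littermates, with sums of 604 and 784 against 44.4 CPM at E15.5 (replicates 1 and 2 against 3) and of 409 and 299 against 68.0 CPM at P8.

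Wnt proteins are lipid-modified, short-range signals that bind a Frizzled receptor on a neighbouring cell. With the co-receptor Lrp5 or Lrp6 they stabilise β-catenin, which enters the nucleus and acts with the Tcf/Lef DNA-binding proteins, while Ror1 and Ror2 serve β-catenin-independent signalling. R-spondins raise the amount of Frizzled at the cell surface, secreted inhibitors hold back the ligands or the co-receptors, and Axin2, Nkd1 and Notum are feedback inhibitors that the pathway itself induces. In the lung, Wnt2 and Wnt2b from the mesenchyme specify the organ, Wnt7b is a ligand of the epithelium, and Wnt5a acts in the outgrowth and later the alveolar stage.

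The largest differences in the family were at *Wnt3a*, *Wnt10b* and *Rspo4*, which had few reads before birth and at least 423 reads in each library afterwards. *Wnt3a* (chr11:59248033-59290752, minus strand, mm10) lies head to head with *Wnt9a* (chr11:59306928-59333552, plus strand), another ligand gene that was higher after birth, with 16.2 kb between the annotated starts. The 250 bases before the start of these 4 genes are shown here, 5′ to 3′ on the strand of the gene, since they are the promoters of members that moved together. They were taken from the RefSeq promoter windows on GRCm38.p6, the same assembly as mm10. Capitals mark GGGCGG or its reverse complement CCGCCC, the core of the GC box. The windows are chr11:59290752-59291001 for *Wnt3a*, chr11:59306680-59306929 for *Wnt9a*, chr15:98778151-98778400 (minus strand) for *Wnt10b* and chr2:151842677-151842926 (plus strand) for *Rspo4*.
*Wnt3a* upstream: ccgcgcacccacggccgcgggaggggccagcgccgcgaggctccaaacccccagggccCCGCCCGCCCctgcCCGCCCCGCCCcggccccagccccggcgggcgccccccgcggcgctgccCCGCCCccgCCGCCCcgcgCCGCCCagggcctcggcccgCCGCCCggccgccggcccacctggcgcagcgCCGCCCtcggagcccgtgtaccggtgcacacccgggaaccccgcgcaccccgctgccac
*Wnt9a* upstream: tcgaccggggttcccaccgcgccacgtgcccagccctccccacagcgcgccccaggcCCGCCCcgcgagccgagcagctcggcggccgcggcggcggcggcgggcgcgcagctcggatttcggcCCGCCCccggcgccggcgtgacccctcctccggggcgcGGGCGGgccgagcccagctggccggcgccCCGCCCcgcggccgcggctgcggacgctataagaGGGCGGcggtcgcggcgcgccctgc
*Wnt10b* upstream: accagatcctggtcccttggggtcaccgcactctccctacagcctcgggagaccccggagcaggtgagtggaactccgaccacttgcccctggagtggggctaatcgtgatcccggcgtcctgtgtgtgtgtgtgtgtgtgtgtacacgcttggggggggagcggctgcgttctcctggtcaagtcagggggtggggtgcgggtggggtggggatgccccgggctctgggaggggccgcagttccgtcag
*Rspo4* upstream: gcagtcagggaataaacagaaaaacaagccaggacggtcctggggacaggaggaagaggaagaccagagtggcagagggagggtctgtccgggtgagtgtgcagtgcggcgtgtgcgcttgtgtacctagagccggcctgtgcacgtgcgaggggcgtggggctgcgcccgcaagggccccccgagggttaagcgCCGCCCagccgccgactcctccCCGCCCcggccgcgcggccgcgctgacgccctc
The *Wnt3a* window was 87.6% G or C and held 9 GC boxes, and the *Wnt9a* window was 84.4% G or C and held 5. The *Rspo4* window held 2 at 69.6% G or C, and the *Wnt10b* window held 0 at 66.8%. The 3 genes with few reads before birth thus did not all hold this element in these windows. A promoter window of 300 bases (250 before and 50 after the start) was given for 27 of the 40 members, in 34 windows because some have several starts. Of the 34 windows of members, 27 (79.4%) held a GC box, against 35.7% of all 32851 windows, and the median G or C content was 68.2% against 52.7%. The core Tcf/Lef motif CTTTGA, searched on both strands, was in 5 of the 34 windows (14.7%), one each of *Fzd1*, *Lef1*, *Ror1*, *Wnt11* and *Wnt5b*, and in 16% of all windows. TATAAA was in 6 windows of members and in 13.6% of all windows. These matches describe the letters of the windows and were not tested for function.

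A gene was called changed at an absolute log2 fold change above 1 with a false discovery rate (FDR, the Benjamini-Hochberg adjusted p-value over all 15994 genes tested in edgeR) under 0.05. Of the 40 members, 20 (50%) were called between E18.5 and P5, 12 higher and 8 lower, where 26.8% of all genes were called (17.5% higher and 9.34% lower). Between E15.5 and E18.5, 3 members were called (7.50%, against 3.04% of all genes). Between P5 and P8, 4 members were called, all 4 of them higher (10%, against 2.96% of all genes, 2.88% higher). From E15.5 to P8, 21 members were called, 14 higher and 7 lower (52.5%, against 32.3% of all genes). The genes *Rspo4*, *Wnt10b*, *Wnt3a* and *Wnt6* passed the minimum of 1 CPM in 3 libraries through postnatal libraries alone. *Rspo3* passed it through embryonic libraries alone. The filter itself thus favoured a difference across birth in these 5. Without these genes 15 of 35 members (42.9%) were called between E18.5 and P5, against 20.7% of the 14313 genes left when all genes that passed through 1 side of birth alone were removed. All 5 were also among the 21 members called from E15.5 to P8, for which no share without them was computed. At the FDR cutoff alone 80% of the members and 71.1% of all genes passed across birth, and 75% and 76.3% from E15.5 to P8. The interval across birth held the largest absolute fold change of 27 members (67.5%), close to the 70.7% of all genes. In whole lung, a change in the number of cells of a type and a change in RNA per cell cannot be told apart. Across the same interval 5 of 5 AT2 genes, 5 of 5 alveolar type 1 genes and 3 of 5 endothelial genes were called higher, and 5 of 5 proliferation genes lower, and their part in the changes of Wnt genes was not tested.

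**Figure D1:**
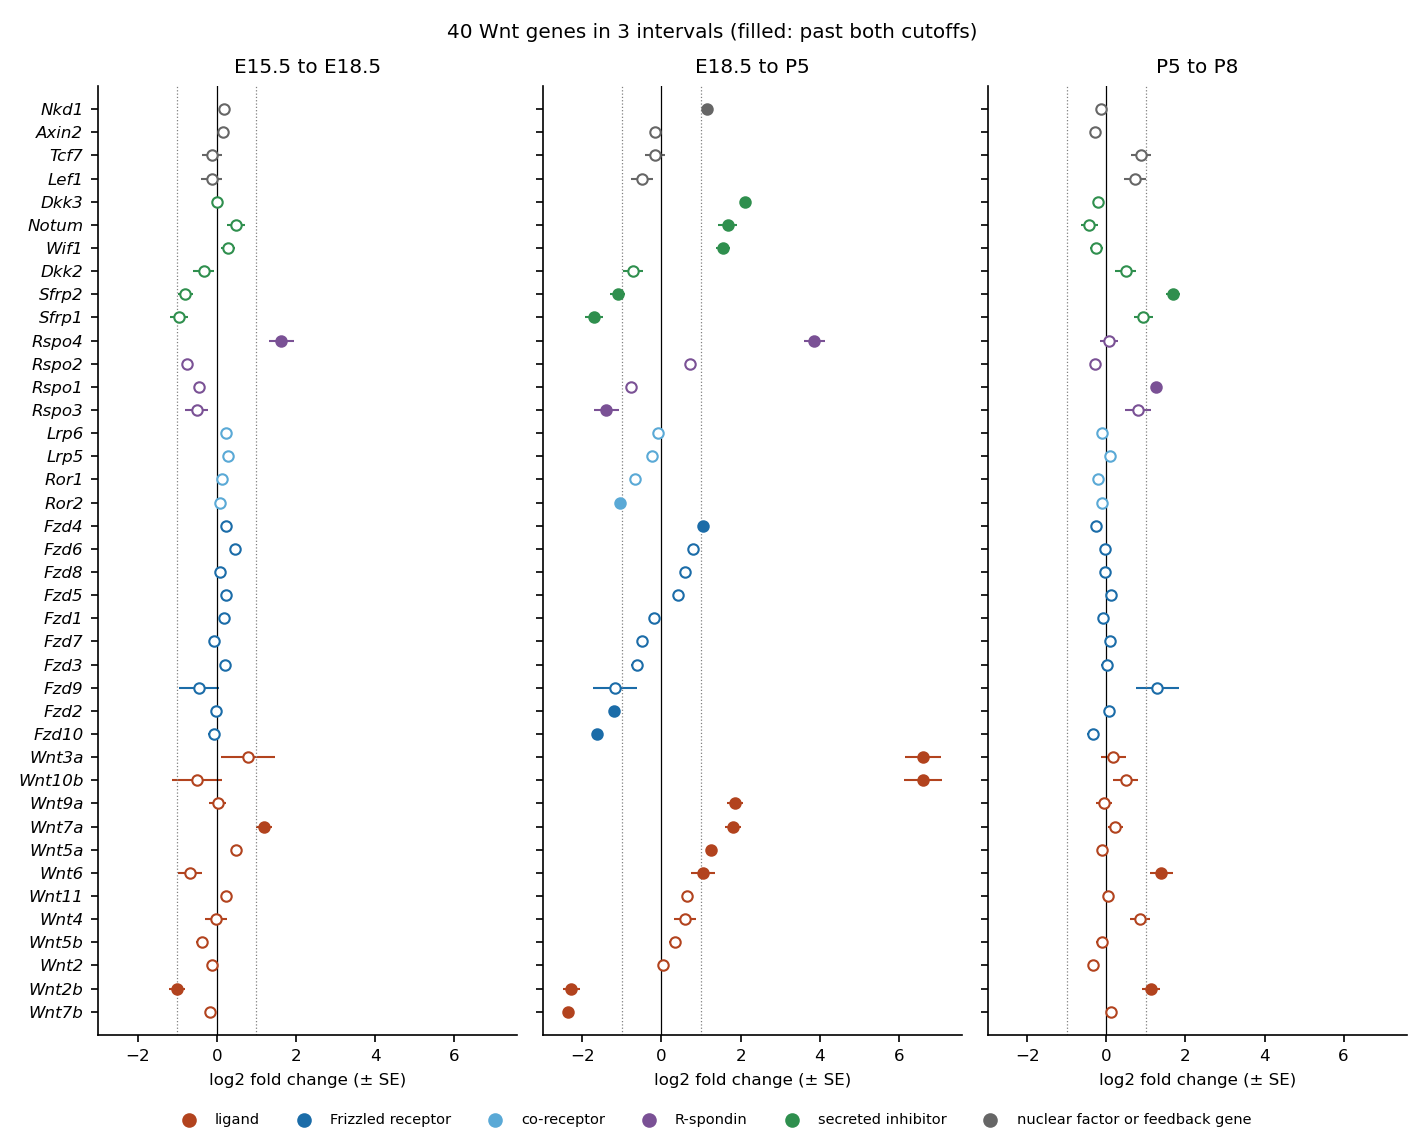
Log2 fold change (x axis, ± SE) of each of the 40 members (y axis, coloured by role) in 3 consecutive intervals; filled points passed both the fold and the FDR cutoff, and dotted lines mark a log2 fold change of 1 in either direction. The middle panel, E18.5 to P5, holds 20 filled points, with *Wnt3a* and *Wnt10b* above 6, while the outer panels hold 3 and 4.

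Among the ligands, 8 of 12 (66.7%, against 26.8% of all genes) changed between E18.5 and P5. *Wnt3a*, *Wnt10b*, *Wnt9a*, *Wnt7a*, *Wnt5a* and *Wnt6* rose, and *Wnt7b* and *Wnt2b* fell. Of these, *Wnt3a*, *Wnt10b* and *Wnt6* passed the expression filter through postnatal libraries alone, which favoured a rise. *Wnt3a*, a potent activator of β-catenin signalling, measured 0.226, 0.0590 and 0.0393 CPM at E15.5 and 0.123, 0.421 and 0.0549 CPM at E18.5, which came from 2–22 reads per library. At P5 it measured 18.9, 18.3 and 18.2 CPM and at P8 21.8, 17.9 and 24.1 CPM, from 885–1464 reads. No embryonic library came near a postnatal one, and the change across birth was 6.61 ± 0.46 on the log2 scale (SE, n = 3 per time-point). No p-value is given for it, since the gene passed the expression filter through postnatal libraries alone. *Wnt10b*, another ligand of the β-catenin branch, measured 0.0161, 0.256 and 0.157 CPM at E15.5 and 0.0411, 0.134 and 0.110 CPM at E18.5, then 8.48, 9.85 and 8.63 CPM at P5. Its log2 fold change was 6.60 ± 0.48, without a p-value for the same reason, and at P8 it stood at 12.8, 10.5 and 15 CPM. With so few embryonic reads the fitted fold of either gene depends on the prior count, and the values per library carry the comparison.

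*Wnt7b*, the ligand of the embryonic airway epithelium, showed the opposite course. It measured 110, 114 and 127 CPM at E15.5 and 98.6, 99.2 and 112 CPM at E18.5, against 19.2, 20 and 17.3 CPM at P5 and 20.9, 21.8 and 19.1 CPM at P8. The groups on either side of birth were far apart and the fall across birth was 5.16-fold (log2 fold change -2.37 ± 0.091, edgeR adjusted p = 1.3e-09). A summed signal of 3 general lung epithelial genes was 595–686 CPM at E18.5 against 372–402 CPM at P5, and its part in this fall was not tested. *Wnt7a*, the closest relative of *Wnt7b*, rose in both the first and the second interval. It measured 1.60, 1.95 and 1.59 CPM at E15.5, 4.37, 4.52 and 2.80 CPM at E18.5 against 13, 14.6 and 10.8 CPM at P5, with no overlap between consecutive time-points. The log2 fold changes were 1.19 ± 0.21 (edgeR adjusted p = 0.0028) and 1.80 ± 0.20 (adjusted p = 4.3e-06). At P8 *Wnt7a* (13–17.9 CPM) and *Wnt7b* (19.1–21.8 CPM) were at like read levels. Per kilobase of exon the mean of *Wnt7a* was 4.77 and that of *Wnt7b* 4.21 CPM per kb at P8, against 0.540 and 23.9 CPM per kb at E15.5.

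*Wnt2b*, which acts with Wnt2 in early lung specification, fell from 20.6, 18.8 and 19.7 CPM at E15.5 to 7.88, 9.17 and 12.3 CPM at E18.5 and on to 1.69, 2.0 and 2.01 CPM at P5. No library overlapped the neighbouring time-point. The second step was the larger (log2 fold change -2.28 ± 0.22, edgeR adjusted p = 1.6e-06), and the first lay at the fold cutoff (-1.0 ± 0.21, adjusted p = 0.0069). The call of the first step was lost in 14 alternative analyses, with log2 fold changes between -1.0 and -0.88, the last of them without E18.5 replicate 1. Its partner *Wnt2* held 96.3, 110 and 108 CPM at E15.5, 101, 96.8 and 91.9 CPM at E18.5 against 94.3, 91.9 and 92.4 CPM at P5. At P8 it measured 74.9, 68.0 and 81.3 CPM, below all P5 libraries, with a log2 fold change of -0.33 ± 0.08 (edgeR adjusted p = 0.017) that was past the FDR cutoff and not the fold cutoff. Without P8 replicate 2 the value was -0.26 (adjusted p = 0.06) and without the 3 libraries that stood apart -0.22 (adjusted p = 0.22).

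*Wnt5a*, the main ligand of β-catenin-independent signalling, measured 50, 41.7 and 46.3 CPM at E15.5, 71.0, 65.9 and 55.8 CPM at E18.5 against 135, 149 and 146 CPM at P5, and 124, 128 and 154 CPM at P8. It rose 2.37-fold across birth (log2 fold change 1.24 ± 0.10, edgeR adjusted p = 3e-07). *Wnt9a* was at 3.74–6.69 CPM in the 6 embryonic libraries and 14.2–19 CPM in the 6 postnatal libraries, with a log2 fold change of 1.86 ± 0.21 (edgeR adjusted p = 5.7e-06). Its rise was 3.63-fold, whereas its neighbour *Wnt3a* started from near 0. *Wnt6* was low throughout, at 0.513–1.46 CPM in embryonic libraries and 1.11–1.28 CPM at P5. Its log2 fold change across birth was 1.05 ± 0.30, and it too passed the expression filter through postnatal libraries alone. The call was lost without E18.5 replicate 1 (0.94), without E18.5 replicate 3 (0.99) and with library size alone as the scaling (0.98). The ligands that were not called across birth were *Wnt2*, *Wnt4*, *Wnt5b* and *Wnt11*. *Wnt4*, needed for normal growth of the lung and trachea, measured 4.74–7.78 CPM at E18.5, 6.54–9.58 CPM at P5 and 12.1–17.6 CPM at P8, and was called higher from E15.5 to P8 (log2 fold change 1.42 ± 0.27, edgeR adjusted p = 0.00036). *Wnt11* went from 36.8–39.1 CPM to 48.1–64.4 CPM across birth without overlap (0.64 ± 0.088, adjusted p = 3e-05), under the fold cutoff. *Wnt5b* lay between 7.82 and 13.2 CPM in all 12 libraries and was called in no comparison.

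**Figure D2:**
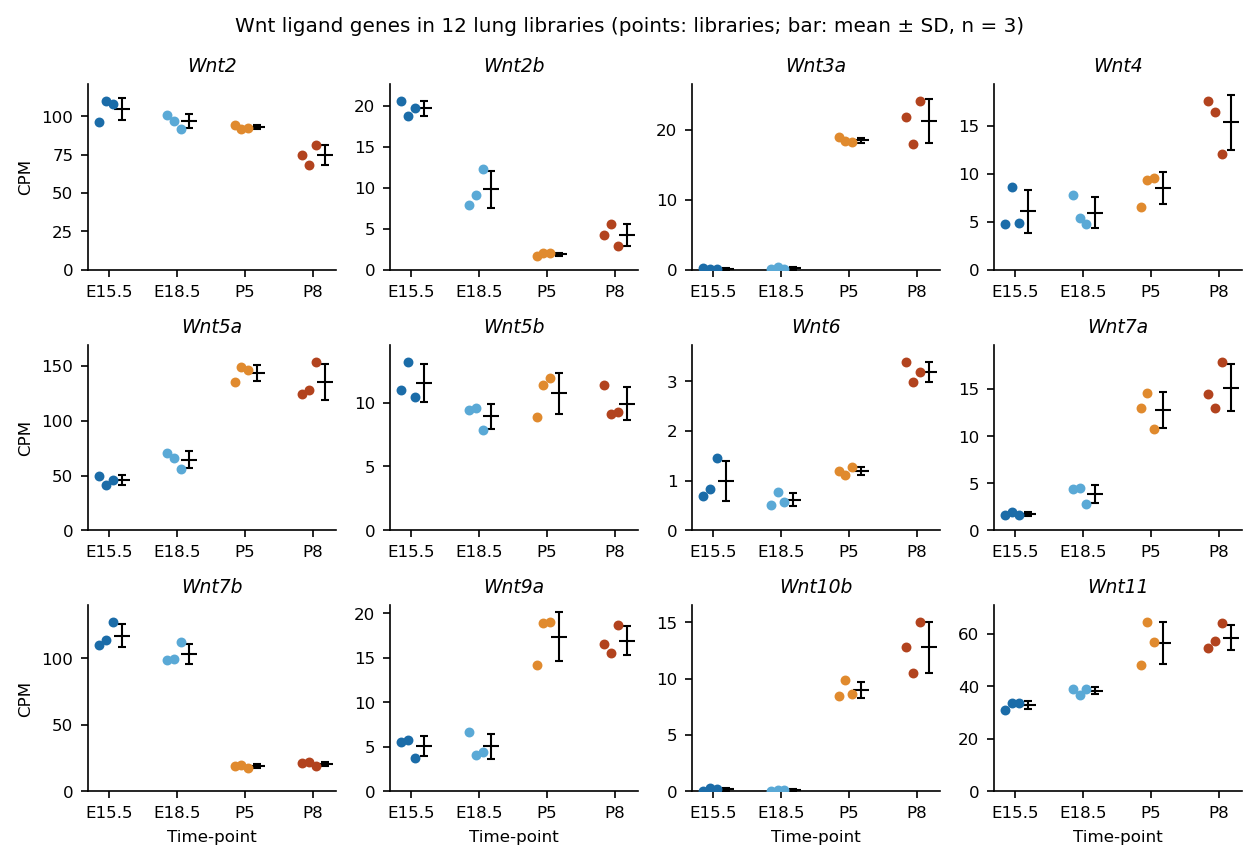
CPM (y axis, from 0, a scale of its own for each gene) of the 12 ligand genes by time-point (x axis); points are libraries and bars the mean ± SD of 3. *Wnt3a* and *Wnt10b* are at or below 0.421 CPM in every embryonic library and at or above 8.48 CPM in every postnatal one, and *Wnt7b* falls from 98.6–127 CPM to 17.3–21.8 CPM.

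To compare ligands with each other, CPM was divided by the length of all exons of the gene in kilobases. On this scale the ligands together measured between 89.8 and 108 CPM per kb in the 12 libraries, so their sum varied little while its makeup did. *Wnt2* ranked 1 at all 4 time-points, with 47.7 ± 1.11%, 46.8 ± 1.17%, 40.2 ± 2.22% and 33.1 ± 0.654% of the ligand sum (SD, n = 3). *Wnt7b* ranked 2 before birth with 24.6 ± 1.30% and 23 ± 2.19%, and 8 at P5 with 3.75 ± 0.293%. *Wnt5a* took rank 2 after birth, with 17.8 ± 0.265% at P5 and 17.3 ± 1.1% at P8, against 8.94 ± 0.876% at E18.5. *Wnt11* ranked 3 at every time-point. *Wnt3a*, last at E15.5, ranked 4 at P5 with 6.53 ± 0.408% and at P8 with 7.67 ± 0.616%. These shares describe transcripts per length and carry no test.

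**Figure D3:**
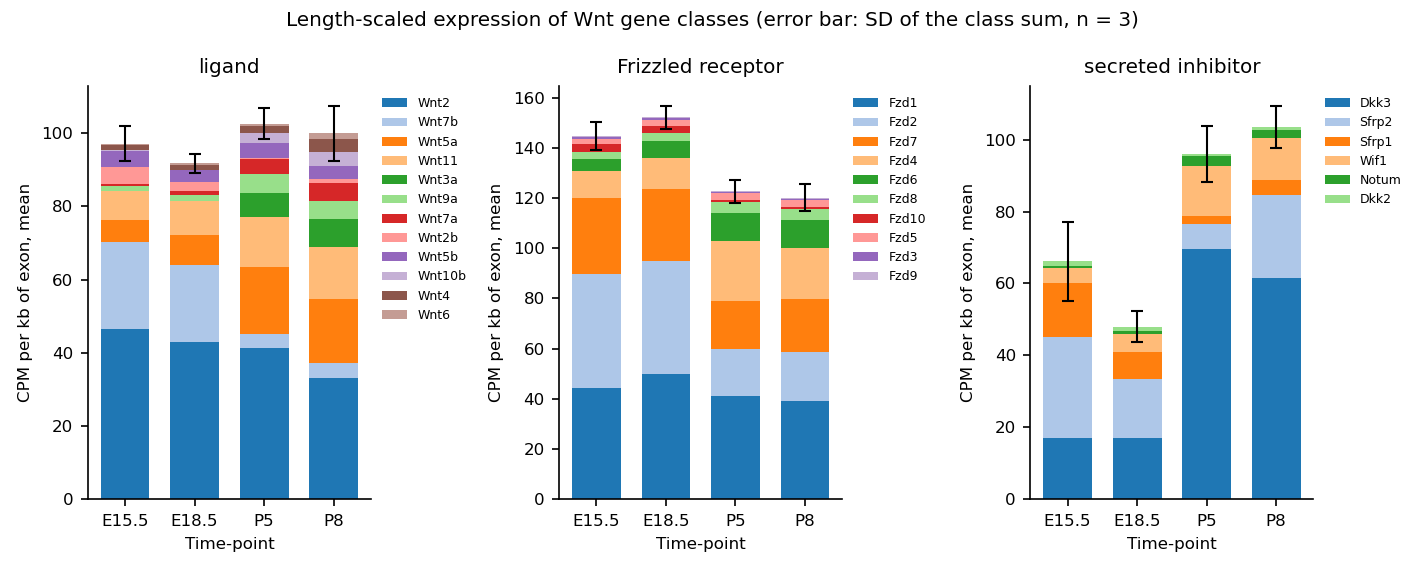
Mean CPM per kb of exon (y axis, from 0) at 4 time-points (x axis), stacked by gene, for the ligands, the Frizzled receptors and the secreted inhibitors; the error bar is the SD of the class sum over 3 libraries. The ligand sum stays near its embryonic height while the *Wnt7b* segment shrinks, and *Dkk3* fills most of the inhibitor bars after birth.

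Of the 10 Frizzled receptor genes, 3 were called across birth (30%, near the 26.8% of all genes). *Fzd4*, a receptor of the endothelium that also binds Norrin, measured 80.1, 89.1 and 79.1 CPM at E18.5 against 152, 166 and 166 CPM at P5, a 2.07-fold rise without overlap (log2 fold change 1.05 ± 0.064, edgeR adjusted p = 3.2e-08). The value was 0.98, under the fold cutoff, with library size alone as the scaling, and from E15.5 to P8 it was 1.04 ± 0.065 with all libraries and 0.98 without P8 replicate 3. The summed CPM of 5 endothelial genes went from 1001–1117 at E18.5 to 2022–2145 at P5, and its part in the rise of *Fzd4* was not tested. *Fzd2*, a receptor of the embryonic mesenchyme and epithelium, measured 181, 155 and 160 CPM at E18.5 against 63.9, 71.2 and 70.3 CPM at P5 (log2 fold change -1.19 ± 0.072, edgeR adjusted p = 2.9e-08). *Fzd10*, a low-level receptor, fell from 9.65, 8.90 and 10.1 CPM to 2.76, 3.18 and 2.81 CPM (-1.63 ± 0.13, adjusted p = 3.6e-07). Each of these genes stayed near its new level at P8, with 130–148 CPM for *Fzd4*, 71.3–72.9 CPM for *Fzd2* and 2.19–2.55 CPM for *Fzd10*.

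*Fzd6* passed the fold cutoff over the whole course and in none of the 3 intervals. It measured 23.1–25.1 CPM at E15.5, 31.9–35.4 CPM at E18.5, 53.5–54 CPM at P5 and 51.6–56.7 CPM at P8, with a log2 fold change over the whole course of 1.22 ± 0.065 (edgeR adjusted p = 5.8e-09). The first 2 intervals gave 0.45 ± 0.065 and 0.79 ± 0.064, both past the FDR cutoff, and P5 and P8 differed by -0.02 ± 0.064 (adjusted p = 0.87). The other 6 Frizzled genes were called in no comparison. *Fzd1* ranged from 157 to 215 CPM over the 12 libraries, *Fzd3* from 7.11 to 13.9 CPM, *Fzd5* from 12.2 to 21.4 CPM, *Fzd7* from 86.0 to 143 CPM and *Fzd8* reached 26.6 CPM from a mean of 17.2 CPM at E15.5. *Fzd9* was at 0.0803–1.22 CPM and was under 1 CPM in most libraries. Across birth *Fzd5* (log2 fold change 0.41 ± 0.096) and *Fzd8* (0.59 ± 0.096) were on the side of *Fzd4*, and *Fzd7* (-0.49 ± 0.055) and *Fzd3* (-0.63 ± 0.14) on the side of *Fzd2*, all past the FDR cutoff and under the fold cutoff.

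Per kilobase, *Fzd2*, *Fzd1* and *Fzd7* made up 31.6 ± 1.09%, 30.5 ± 0.178% and 20.9 ± 0.887% of the Frizzled sum at E15.5. At P5 *Fzd1* led with 33.4 ± 0.521%, *Fzd4* ranked 2 with 19.6 ± 0.236% against 8.10 ± 0.667% at E18.5, and *Fzd2* had 15.2 ± 0.324%. The class sum was 149–157 CPM per kb at E18.5 and 117–126 CPM per kb at P5.

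The co-receptors of the β-catenin branch differed little in these data. *Lrp5* lay between 141 and 200 CPM and *Lrp6* between 111 and 165 CPM over the 12 libraries, and neither was called in any comparison. *Ror2*, a receptor for Wnt5a, measured 46.7, 43.6 and 43.6 CPM at E18.5 against 19.5, 22.3 and 19.4 CPM at P5, with no overlap (log2 fold change -1.04 ± 0.084, edgeR adjusted p = 2.9e-07). Without P5 replicate 3 the value was -1.0 and the call was lost, while from E15.5 to P8 it was -1.09 ± 0.084 (adjusted p = 1.4e-07). *Ror1* went the same way by a smaller amount, from 49.0–57.2 CPM to 29.4–33.9 CPM (-0.67 ± 0.10, adjusted p = 7.3e-05), under the fold cutoff. *Wnt5a* thus rose in the interval in which *Ror2* fell.

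R-spondin genes each took a course of their own. *Rspo4* measured 0.291, 0.177 and 0.197 CPM at E15.5, 0.883, 0.823 and 0.385 CPM at E18.5 against 9.04, 10.3 and 9.24 CPM at P5, and 8.68, 10.1 and 11.4 CPM at P8. It rose in both intervals up to P5, with log2 fold changes of 1.63 ± 0.31 (edgeR adjusted p = 0.0045) and 3.86 ± 0.27. The second of these fold changes has no p-value here, since the gene passed the expression filter through postnatal libraries alone. Without E15.5 replicate 2 the first of these was 1.49 ± 0.35 (adjusted p = 0.018). The first step rests on 9–18 reads per library at E15.5 and 21–43 at E18.5. *Rspo1* measured 18.3, 16.9 and 17 CPM at E15.5, 12.8, 11.7 and 13.4 CPM at E18.5 against 7.10, 7.25 and 6.77 CPM at P5, and then rose to 17.4, 16.1 and 17.4 CPM at P8 (log2 fold change 1.25 ± 0.093, edgeR adjusted p = 5.9e-05). The P8 libraries were back within the E15.5 range or close to it.

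*Rspo2*, needed in the embryo for the growth of the lung, measured 17.4–19.5 CPM at E15.5, 9.76–12.5 CPM at E18.5, 15.3–18.7 CPM at P5 and 13–16.3 CPM at P8. It dipped by a log2 fold change of -0.74 ± 0.12 before birth and returned by 0.72 ± 0.12 after it, both past the FDR cutoff (edgeR adjusted p = 0.0026 and 0.00022) and under the fold cutoff. *Rspo3*, expressed by endothelium in the adult lung, was at 0.957–2.34 CPM before birth and 0.329–0.849 CPM after it (E18.5 to P5 -1.39 ± 0.32). It passed the expression filter through embryonic libraries alone, so no p-value is given. Its call from E15.5 to P8 (-1.09 ± 0.31) was lost without E15.5 replicate 2 (-0.76), without P8 replicate 3 (-0.98) and without the 3 libraries that stood apart (-0.99). Per kilobase, *Rspo1* held 69.6 ± 0.732% of the R-spondin sum at E18.5, whereas at P5 *Rspo4* (36.0 ± 1.51%), *Rspo1* (32.5 ± 1.0%) and *Rspo2* (30.2 ± 1.48%) were close together.

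Of the 6 secreted inhibitors, 5 changed across birth (83.3%, against 26.8% of all genes), and they changed in opposite directions. *Dkk3*, a divergent Dickkopf whose action on Wnt signalling depends on the cell, measured 60.2, 55.1 and 57.2 CPM at E18.5 against 218, 254 and 230 CPM at P5, a rise of 4.32-fold (log2 fold change 2.11 ± 0.13, edgeR adjusted p = 3.8e-08). *Wif1*, which binds ligands outside the cell, measured 15, 11.1 and 10 CPM and then 31.8, 36.9 and 31.6 CPM (1.56 ± 0.17, adjusted p = 4.7e-06). *Notum*, an enzyme that strips the lipid from Wnt proteins, measured 2.85, 1.78 and 2.03 CPM and then 6.89, 6.83 and 6.21 CPM (1.67 ± 0.23, adjusted p = 2.7e-05). No library overlapped across birth for any of these genes. *Notum* shares 29.4% of its exon bases with an antisense gene of 0.205 CPM, and the sources do not say whether counting used strand.

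*Sfrp1* and *Sfrp2*, which trap Wnt ligands through a Frizzled-like domain, fell. *Sfrp1* measured 63.3, 78.8 and 53.8 CPM at E15.5, 34.7, 26.4 and 39.9 CPM at E18.5 against 8.88, 10.9 and 9.27 CPM at P5, and up to P5 each time-point lay below the one before (E18.5 to P5 log2 fold change -1.71 ± 0.23, edgeR adjusted p = 2.8e-05). At P8 it measured 19.2, 24.8 and 12.2 CPM, above all P5 libraries, with a log2 fold change of 0.94 ± 0.23 (adjusted p = 0.018) that was under the fold cutoff and was 0.32 (adjusted p = 0.41) without the 3 libraries that stood apart. *Sfrp2* measured 60.5, 68.3 and 52.9 CPM, then 35.3, 31.0 and 38.5 CPM, then 17, 17.8 and 11 CPM at P5 (-1.11 ± 0.18, adjusted p = 0.00012), and without P5 replicate 3 the last step was -0.91. *Sfrp2* then rose to 48.4, 58.9 and 42.1 CPM at P8 (1.69 ± 0.18, adjusted p = 0.00036). *Dkk2* was at 2.07–6.72 CPM and was called in no comparison. Per kilobase, the inhibitor class measured 43.0–50.8 CPM per kb at E18.5 and 91.3–105 CPM per kb at P5. The rise of this sum lay in *Dkk3*, from a mean of 17.1 to 69.6 CPM per kb. *Wif1* (4.96 to 13.8) and *Notum* (0.923 to 2.76) rose too. *Sfrp2* (16.2 to 7.07), *Sfrp1* (7.70 to 2.21) and *Dkk2* (1.06 to 0.606) fell, so the genes other than *Dkk3* did not rise as a sum. The leading gene of the class was *Sfrp2* at E15.5 (42.7 ± 1.80%) and *Dkk3* at P5 (72.5 ± 1.83%).

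**Figure D4:**
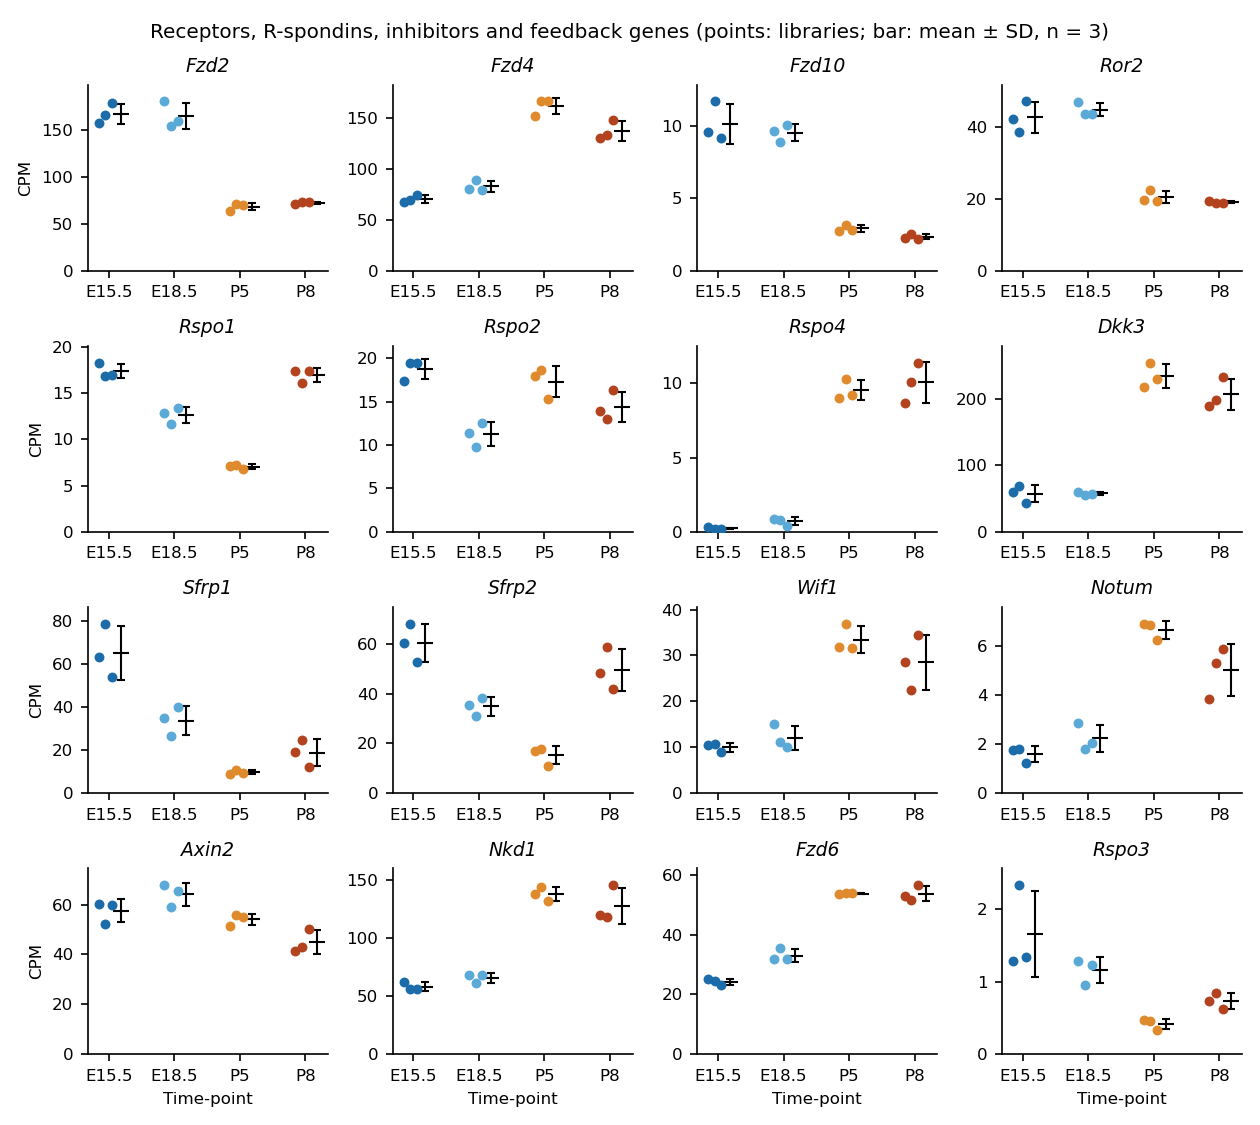
CPM (y axis, from 0, a scale of its own for each gene) of 16 receptor, R-spondin, inhibitor and feedback genes at 4 time-points (x axis); points are libraries and bars the mean ± SD of 3. *Fzd4*, *Rspo4*, *Dkk3*, *Wif1*, *Notum* and *Nkd1* are higher in every postnatal library than in every embryonic one, and *Rspo1* and *Sfrp2* are lowest at P5.

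The feedback genes did not move as one. *Axin2*, the most widely used readout of β-catenin signalling, measured 67.9, 58.9 and 65.4 CPM at E18.5 against 51.6, 55.8 and 54.9 CPM at P5, with a log2 fold change of -0.16 ± 0.084 (edgeR adjusted p = 0.11). From P5 to P8 it went to 41.5, 42.8 and 50.3 CPM (-0.29 ± 0.084, adjusted p = 0.035), under the fold cutoff, and the value was -0.24 (adjusted p = 0.14) without P8 replicate 2 and -0.13 (adjusted p = 0.47) without the 3 libraries that stood apart. *Nkd1*, which binds Dishevelled and dampens the signal, measured 68.2, 61.0 and 68.5 CPM at E18.5 against 138, 144 and 132 CPM at P5, a 2.23-fold rise without overlap (1.15 ± 0.084, adjusted p = 1.2e-07). *Nkd1* held 118–146 CPM at P8. The difference between the courses of *Axin2* and *Nkd1* was itself not tested.

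Between P5 and P8, *Rspo1*, *Sfrp2*, *Wnt2b* and *Wnt6* rose. *Wnt6* went from 1.20, 1.11 and 1.28 CPM to 3.39, 2.99 and 3.19 CPM (log2 fold change 1.39 ± 0.29, edgeR adjusted p = 0.0088), and *Wnt2b* from 1.69–2.01 CPM to 4.19, 5.55 and 2.83 CPM (1.13 ± 0.22, adjusted p = 0.0072). In P8 replicate 3, the library with few thymus reads, *Wnt6* was as high as in its littermates and *Wnt2b* was the lowest of the 3. When P8 replicates 1 and 2 and E15.5 replicate 2 were left out, leaving 1 library at P8, *Rspo1* (1.28, edgeR adjusted p = 0.0036) and *Sfrp2* (1.44, adjusted p = 0.013) passed both cutoffs with the spread of the other time-points, *Wnt6* kept its size (1.38) at an adjusted p of 0.088, and *Wnt2b* was at 0.55 (adjusted p = 0.21). Leaving out P8 replicate 2 alone brought *Wnt2b* to 0.88 (adjusted p = 0.029). Genes of the mesothelium, the outer lining of the lung, moved in the same interval: 4 of 4 were called higher, with summed levels of 105–172 CPM at P5 and 442–491 CPM at P8, in all 3 P8 libraries alike. In the same interval 4 cartilage genes summed to 4.69–12.6 CPM at P5 and to 60.2, 102 and 5.06 CPM at P8. The part of these tissues in the 4 rises was not tested.

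*Tcf7* and *Lef1* encode DNA-binding partners of β-catenin, and both are also abundant in developing T cells. *Tcf7* measured 104–114 CPM at E15.5, 91.6–107 CPM at E18.5 against 76.3–88.2 CPM at P5, and 148, 235 and 81.8 CPM at P8. *Lef1* measured 11–13.9, 9.84–14.2 and 6.36–8.56 CPM at these time-points, and 11.1, 20.3 and 7.94 CPM at P8. For either gene P8 replicate 2 was highest, replicate 1 second and replicate 3 within the P5 range, the order of the 12 T cell and thymus genes (474, 253 and 29.7 CPM). The 4 cartilage genes had the same order (102, 60.2 and 5.06 CPM). The *Tcf7* difference between P5 and P8 was 0.88 ± 0.26 on the log2 scale (edgeR adjusted p = 0.035) with all libraries, 1.17 ± 0.13 without P8 replicate 3 and -0.05 ± 0.087 (adjusted p = 0.8) without the 3 libraries that stood apart, when P8 is 1 library and the SE comes from the other time-points. For *Lef1* it was 0.73 ± 0.27 (adjusted p = 0.082) with all libraries and 0.00 ± 0.23 without those 3. Of the thymus genes, *Rag1*, which cuts the antigen receptor genes, was at 77.8, 156 and 4.19 CPM at P8. Neither *Tcf7* nor *Lef1* was called in any comparison over all libraries.

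The inclusion of an exon of *Tcf7* (event MmuEX0046681, an event that was chosen in the study on these samples, so that its values are a description) differed more across birth than the expression of the gene. The percent spliced in (PSI, the share of transcripts that hold the exon) was 8.53, 6.93 and 6.35 at E15.5 and 10.2, 8.63 and 5.82 at E18.5. After birth it was 20.7, 29.2 and 28.2 at P5 and 37.6, 38.3 and 23.1 at P8. All postnatal libraries were above all embryonic ones. The P5 libraries (19.7–29.3 CPM of the 12 T cell and thymus genes) and P8 replicate 3 had PSI values between 20.7 and 29.2. The P8 libraries rich in these genes had the highest values. E15.5 replicate 2, with a sum of 45.3 CPM, had a PSI of 6.93. The sums were not made up alike. In E15.5 replicate 2 *Cd4* was at 0.177, *Cd8a* at 0.0786 and *Rag2* at 1.87 CPM. In the P5 libraries *Cd4* was at 2.93–3.56, *Cd8a* at 1.65–2.94 and *Rag2* at 0.0619–0.161 CPM. The part of T cells in the PSI was not tested. Each value rested on 270–1189 corrected reads of the event, rounded to whole numbers. The exact binomial 95% intervals treat these as plain counts, so they cover counting error only, and that approximately. They ran from 3.64–8.59% for the lowest value to 35.5–41.1% for the highest. An exon of *Tcf7l2*, another Tcf gene, rested on 20–51 corrected reads per library. Its PSI was 20.8–55.6 at E15.5, 17.6–41.2 at E18.5, 30.2–63.6 in the P5 libraries and 55.6–79.2 at P8, with overlap between consecutive time-points.

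**Figure D5:**
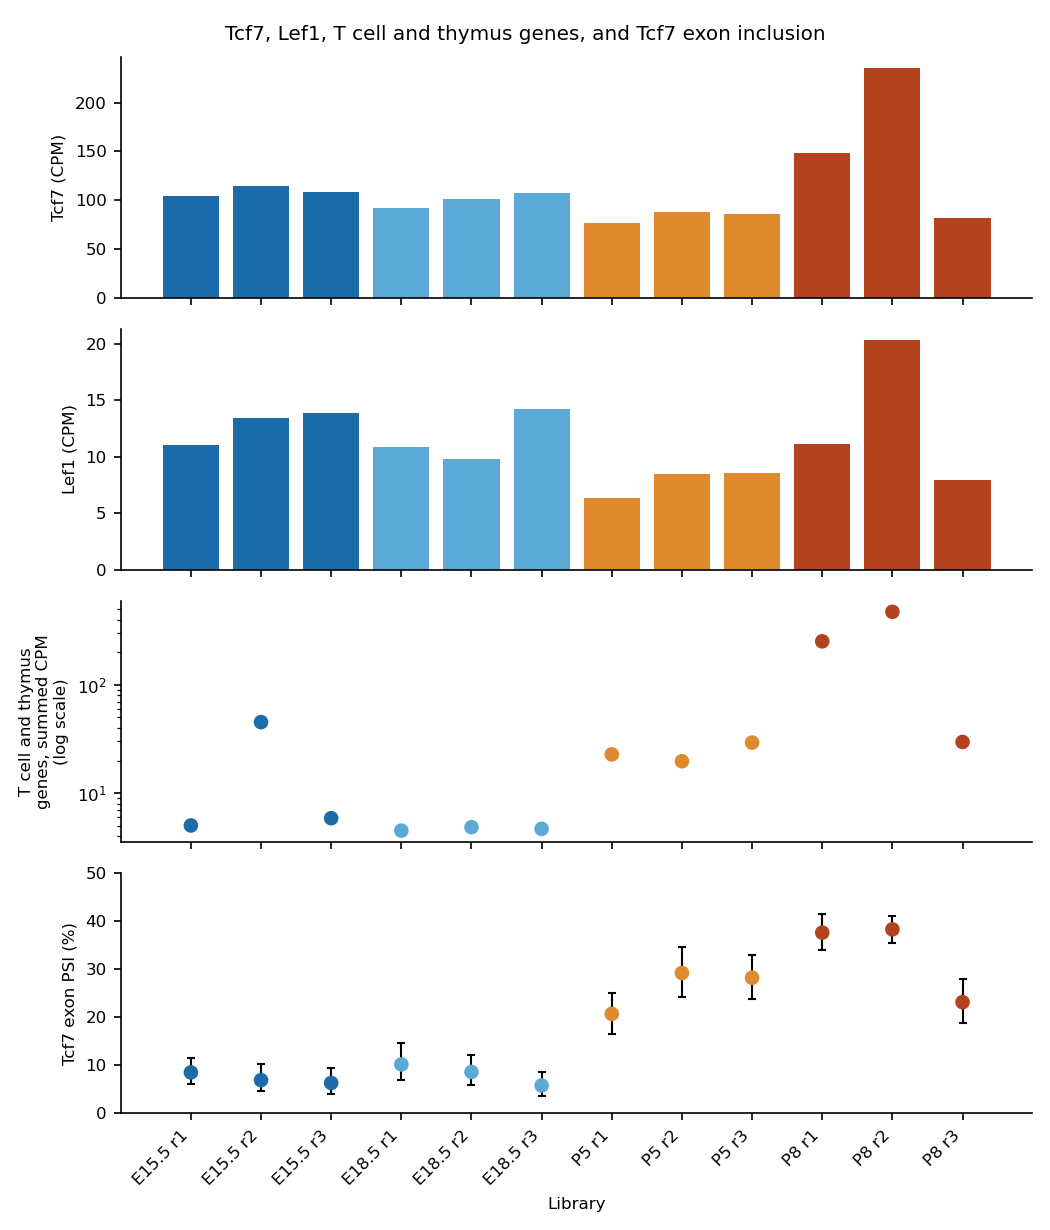
Per library (x axis, 3 replicates at each of 4 time-points): CPM of *Tcf7* and *Lef1* (bars from 0), summed CPM of 12 T cell and thymus genes (log axis), and PSI of the *Tcf7* exon with its exact binomial 95% interval. P8 replicate 2 has the highest value in the upper 3 panels and P8 replicate 1 the second highest for *Tcf7* and the thymus genes, while the PSI is already raised at P5 (20.7–29.2) where *Tcf7* itself is at 76.3–88.2 CPM.

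Of 66 further genes of the pathway, 63 were tested. Between E15.5 and E18.5 edgeR called 0 of them and DESeq2 called 1, while 27 had an unadjusted p under 0.05. Several of the 27 were past the FDR cutoff and under the fold cutoff, the largest at *Lgr6* (0.94 ± 0.17, edgeR adjusted p = 0.0035). Across birth 12 (19%) were called, where 26.8% of all genes were, and 1 between P5 and P8. From E15.5 to P8 12 (19%) were called, 6 higher and 6 lower, where 32.3% of all genes were. *Lgr6* (higher) and *Bambi* (lower) were called in that comparison alone. Among the 5 that rose across birth were *Cd44*, a target gene and surface protein (76.5 ± 7.98 to 184 ± 6.08 CPM, log2 fold change 1.35 ± 0.082), *Apc2*, a relative of the β-catenin destruction complex member Apc (2.24 ± 0.609 to 6.39 ± 0.341 CPM, 1.60 ± 0.20), and *Tspan12*, a partner of Fzd4 in Norrin signalling (30.5 ± 0.767 to 71.1 ± 3.27 CPM, 1.31 ± 0.075). *Porcn*, which attaches the lipid to Wnt proteins, and *Apcdd1*, a membrane inhibitor, rose too. The 7 that fell included the glypican *Gpc6* (65.1 ± 5.49 to 12.9 ± 0.517 CPM, -2.25 ± 0.14), the R-spondin receptor *Lgr5* (2.32 ± 0.820 to 0.681 ± 0.150 CPM, -1.69 ± 0.31) and *Tpbg*, an inhibitor at the cell surface (4.67 ± 0.922 CPM at P5, -1.65 ± 0.16). *Rnf43*, a ligase that removes Frizzled from the surface and is held back by R-spondins, *Tmem132a*, *Dact2* and the target *Myc* were the others. Of the 11 nuclear genes of the list, 0 were called by edgeR or by DESeq2 in any of the 4 comparisons. Across birth 7 of them had an unadjusted p under 0.05 in edgeR. These 7 were past the FDR cutoff too and missed only the fold cutoff, with *Bcl9* (-0.90 ± 0.11) nearest to it. The transcript of β-catenin itself (*Ctnnb1*) measured 814 ± 16.4 CPM at E18.5 against 702 ± 14 CPM at P5 (-0.13 ± 0.053). The gene called from P5 to P8 was *Sost*, a secreted inhibitor made by bone cells (3.74 ± 0.71, edgeR adjusted p = 0.0063). It measured 0.209, 0.557 and 0.131 CPM at P5 and 3.0, 7.94 and 0.970 CPM at P8. The 3 P8 libraries lay in the order of their cartilage genes (60.2, 102 and 5.06 CPM). Their T cell and thymus genes had the same order (253, 474 and 29.7 CPM), and the part of either in the rise of *Sost* was not tested. Without the 3 libraries that stood apart, with 1 library left at P8, the change was 1.71.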

How the data were processed

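RNA was measured in 12 whole-lung libraries at 4 time-points with 3 littermates each. The authors sequenced TruSeq libraries as paired ends, aligned reads with TopHat2 2.1.1 on Bowtie2 2.3.4 to mm10 (Gencode vM14), counted them per gene with HTSeq 0.10.0 and kept genes with at least 1 CPM in 3 samples. Whether counting used strand is not given in the sources used here, and 10 members overlap another gene on the opposite strand, none of those above 0.576 CPM on average. The deposited counts are unnormalised. The deposited CPM are counts divided by the mapped reads of the library (48436716–62279460); whole reads were recovered from 100% of the CPM values above 0 (tolerance 0.01). The deposited percent spliced in values came from VAST-TOOLS.

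Counts were tested with edgeR 4.0.16 in R 4.3.3 (TMM, quasi-likelihood, 1 fit of 12 libraries) on genes that reached 1 CPM in 3 or more libraries. Calls were made at an absolute log2 fold change above 1 and a Benjamini-Hochberg FDR under 0.05. Alternatives used DESeq2 1.42.0, other scalings and filters, left-out libraries and the recovered reads. Symbols matched 16136 of 16152 identifiers. Exon lengths and coordinates came from GENCODE on the same build, promoter windows from RefSeq. The script was tested on simulated data.

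The members and gene lists were chosen with earlier results of these data known. Members called in a comparison were named with their values and the others with their range; of other pathway genes, at most the 3 largest changes per interval and direction were given with values, and the remaining called genes were named. Replicates were compared by the chi-square of their counts per gene (13–75.3 on average), so none was treated as a duplicate.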

Additional observations from a re-analysis of the deposited data

Results flagged for a closer look

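Reads of 10 genes with Wnt family symbols that are below the counts table were present in the deposited CPM table, above the 3 reads that a count of 0 allows. These genes took part in none of the comparisons of the counts table. In the test on reads recovered from CPM, 6 of them passed both cutoffs in 1 comparison each. Of all 25809 genes in that test, 548 were called from E15.5 to E18.5 and 5394 across birth. From P5 to P8 it called 550, and from E15.5 to P8 6850. *Wnt9b* was lower from E15.5 to E18.5 (edgeR adjusted p = 0.047) and *Dkk1* lower across birth (adjusted p = 0.027). *Sfrp5* was higher from P5 to P8 (adjusted p = 0.035). *Sfrp4* (adjusted p = 0.013), *Wnt1* and *Wnt8b* were higher from E15.5 to P8. The last 2 reached the minimum of 10 reads through P8 libraries alone, so no p-value is given for *Wnt1* and *Wnt8b*. No fold is given for any of the 6 genes, since the lower group held few reads or none. *Wnt9b* had 22, 22 and 0 reads in E15.5 replicates 1, 2 and 3, of which 1 and 2 were high in heart and skeletal muscle genes. In P8 replicates 1, 2 and 3 *Sfrp5* had 37, 75 and 9 reads, *Wnt8b* 15, 20 and 1, *Sfrp4* 120, 90 and 25 and *Wnt1* 5, 15 and 6. *Dkk1* had 5, 4 and 19 reads at E18.5 and 0, 0 and 1 at P5. This test was not repeated without the libraries that stood apart. The highest level of *Sfrp4* was 2.46 CPM and that of *Wnt10a* 1.38 CPM, both in P8 replicate 1, where *Dkk1* also had its highest level (0.595 CPM). *Sfrp5* reached 1.23 CPM, *Wnt8b* 0.327 CPM, *Wnt3* 0.294 CPM and *Wnt1* 0.245 CPM in P8 replicate 2. *Wnt9b* reached 0.510 CPM in P8 replicate 3, *Wnt16* 0.452 CPM in E15.5 replicate 1 and *Wnt8a* 0.0916 CPM in E18.5 replicate 3. For 7 of these 10 genes the highest library was P8 replicate 1 or 2, the libraries with the most reads of T cell and thymus genes (253 and 474 CPM). *Dkk4* had 0 reads in all 12 libraries, whose 3-read floors lay between 0.0482 and 0.0619 CPM.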

How the results depend on the processing

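The members called numbered 3, 20, 4 and 21 (E15.5 to E18.5, E18.5 to P5, P5 to P8 and E15.5 to P8). With the fit on the 6 libraries of the comparison, 1 was called from E15.5 to E18.5, since *Rspo4* then failed the expression filter and *Wnt2b* missed the fold cutoff. With the FDR cutoff alone, 12, 32, 10 and 30 members were called, against 21.5%, 71.1%, 18% and 76.3% of all genes, so that the members' share across birth (80%) and from E15.5 to P8 (75%) then lay near that of all genes. Leaving out 1 library at a time gave 2–4, 19–21, 3–7 and 19–21 members, the 7 without P8 replicate 3, where *Tcf7*, *Sfrp1* and *Fzd9* were added. Without P8 replicates 1 and 2 and E15.5 replicate 2, an alternative chosen after seeing the data, 2 members (5%) were called from P5 to P8 with 1 library left at P8, where 90 of all 15701 genes (0.573%) were called. Over all genes, leaving out 1 library moved the 487 calls of the first interval to 284–572 and the 474 of the last to 198–682; the cause was not tested. With the replicate number as a block the counts were 3, 20, 4 and 21 and no call changed. Same-numbered libraries correlated at -0.34 to 0.30 over 18 pairs of deviations, others at -0.31 to 0.27, so the numbers were not read as a pairing. The test on reads recovered from CPM, also added later, ran on 25809 genes and called 548, 5394, 550 and 6850 of them. Of 1055 values of single members under the alternatives, 1027 kept direction and call, 28 lost the call and 0 reversed. The first interval of *Wnt3a*, *Wnt10b* and *Fzd9* had the largest SE among members (0.67, 0.64 and 0.51 on the log2 scale).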
